A study of Mus musculus with 12 samples.

Results

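Chromatin accessibility was compared between microglia (MG), the macrophages that reside in the brain, and monocyte-derived macrophages (MDM), which enter from the blood, both without lipid load and both sorted from mouse brain tumours. The assay was ATAC-seq, in which the Tn5 transposase cuts and tags open DNA, so that a region with more counts was more accessible. The comparison took the 3 count columns named MG and the 3 named MDM, that is 6 of the 12 libraries, and the other 6 libraries, from lipid-laden MG and MDM, entered the filter on low counts, the scaling and the estimate of the spread but not the contrast. All groups share tissue and genotype: the labels give a brain tumour with Ink4a/Arf knockout and PDGFB, and the design text puts the forced PDGFB expression in Nestin-positive progenitors. No label used here gives the strain, age or sex of the mice. Groups were read from the library names, which head the count columns. For 2 of these 6 libraries the sample title names the same group, and for 4 it names another, so each difference reported here holds for groups formed by library name. Mouse numbers stand in the titles alone, and since they conflict with the names they were not used to identify mice. The spread behind each p-value is thus that of 3 libraries per group and may in part be technical.

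Microglia arise from the yolk sac and settle in the embryonic brain, where transforming growth factor beta signalling and regulators such as Sall1 maintain their identity. Monocyte-derived macrophages come from the bone marrow, enter through integrins and chemokine receptors, and in tumours often carry the MHC class II molecules that present peptides to CD4+ T cells. Open chromatin at promoters and enhancers marks where transcription factors can bind. It is not a measure of RNA, and fewer cells of a type in a library cannot be told apart from less accessibility per cell.

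Summed over regions, the MDM libraries held 6341183 to 18938222 counts and the MG libraries 2753453 (MG 1) to 6872724 (MG 2). The first principal component of the 6 libraries held 75.9% of the variance and separated the groups, with MDM between -174 and -156 and MG between 154 and 171. The second held 14.4% and spread the MG libraries alone, with MG 1 at -135, MG 2 at 106 and MG 3 at 34.4. MG 2 and MG 3 also carried more signal at loci of mast cells and basophils, granule-bearing cells of another lineage. Cpa3, the mast cell carboxypeptidase, had 0.553, 1.02 and 0.628 CPM (counts scaled to a common library size) in MDM libraries 1, 2 and 3 and 2.72, 19.5 and 9.04 CPM in MG libraries 1, 2 and 3. Ms4a2, a chain of the IgE receptor, had 4.77, 4.46 and 3.77 CPM in MDM and 7.48, 38.3 and 19.97 CPM in MG. The histidine decarboxylase gene Hdc stood at 54.97, 50.7 and 51.2 CPM in MDM and 46.2, 197 and 115 CPM in MG. At each of these loci MG 2 was highest, MG 3 next and MG 1 lowest among the MG libraries. The summed mast cell and basophil list came to 116 CPM in MG 1, 410 CPM in MG 2 and 255 CPM in MG 3, against 159 to 173 CPM in MDM. Of its 6 tested members 5 were called higher in MG and 1 lower, so the sum does not follow each member. At Cpa3 and Ms4a2 MG 1 also lay above every MDM library, while at Hdc it lay below them. Kit, the stem cell factor receptor gene plotted beside these loci, went the other way. Every MG library lay far below every MDM library there, with values given below. Counts of genes are therefore also given with MG represented by library 1 alone, which is then assumed to vary like the other groups. Between pairs of libraries, chi-square per degree of freedom over regions was 2.60 to 5.84 within MG and 1.64 to 1.92 within MDM. A call or p-value with MG 1 alone therefore does not measure the spread between MG libraries.

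**Figure D1:**
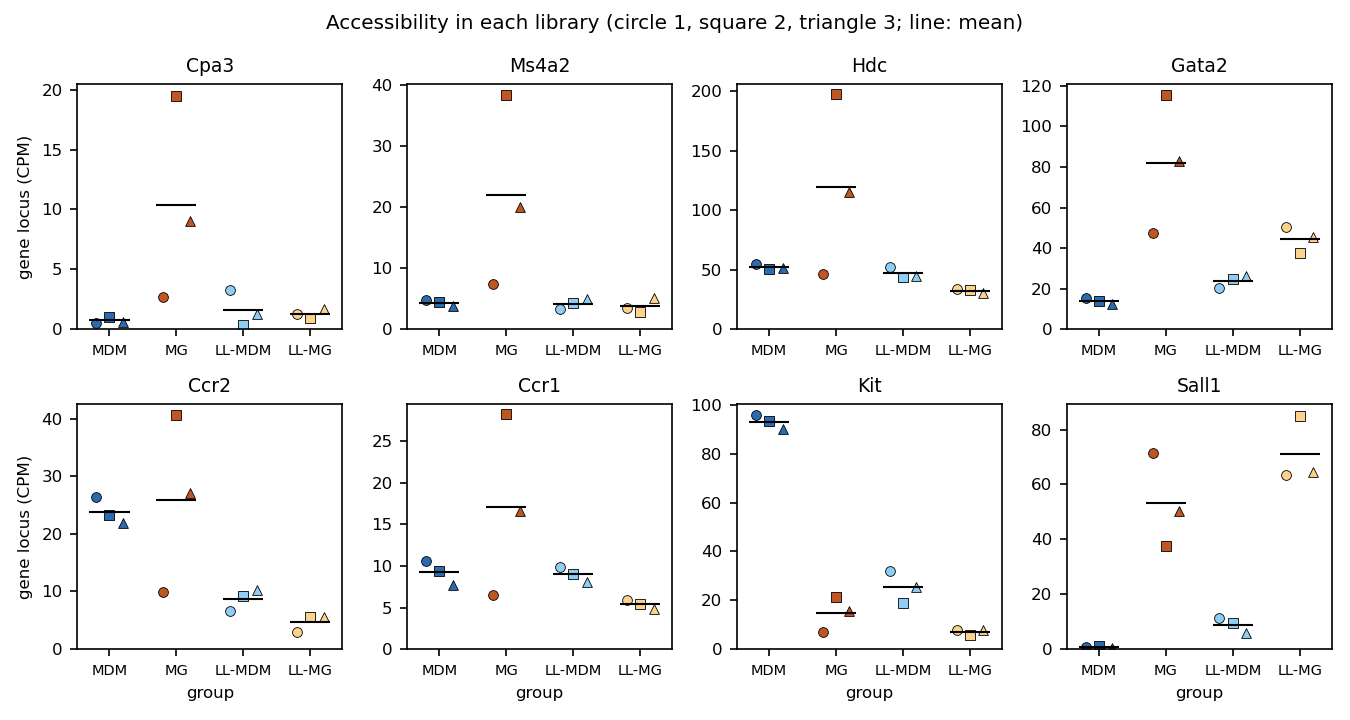
Accessibility in CPM at 8 gene loci in the 12 libraries, by group, where points are libraries and lines are group means. MG 2 and MG 3 stand above MG 1 at Cpa3, Ms4a2, Hdc, Gata2, Ccr2 and Ccr1, while Sall1 is above 37 CPM in every MG library and at or below 1.02 CPM in every MDM library. At Kit MG 2 and MG 3 also stand above MG 1, but every MG library lies below every MDM library.

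The locus deleted in these mice, Cdkn2a (chr4:89274473-89294619, GRCm38.p6), encodes Ink4a and Arf and was called higher in MG. It had 16.2, 17.3 and 10.998 CPM in MDM and 80.6, 63.4 and 64.1 CPM in MG, a log2 fold change of 2.15 ± 0.13 (standard error; edgeR, adjusted p = 1.31e-10). The groups did not overlap. Its counts came from regions at and beside both annotated starts, chr4:89282066-89282506 and chr4:89294535-89294960. No counted region lay between the end of the gene and 89282066, so these regions do not check the deletion.

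MG and MDM without lipid load differed across the genome. Of 77737 tested regions, edgeR called 40163 at an adjusted p under 0.05, which is 51.7%. MG was higher at 20804 regions (26.8%) and lower at 19359 (24.9%). A log2 fold change of at least 1 was reached by 12011 higher and 13469 lower regions, and of at least 4 by 920 higher and 339 lower regions. The order turned with the threshold, with 4819 higher and 5185 lower regions at a log2 of at least 2 and 2124 and 1626 at 3. A single count equalled 0.172 to 0.371 CPM in the MG and 0.0543 to 0.171 CPM in the MDM libraries. The part of this floor in the size of losses was not tested. The balance of higher against lower calls turns with the scaling and the libraries fitted: relative log expression scaling gave 19604 higher and 20075 lower regions, and scaling by total counts gave 18445 and 20843. A fit of the 6 libraries alone, with 88390 regions past the filter, gave 18738 higher and 21784 lower.

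Direction depended on where a region lay. Among the 8639 tested regions that overlap an annotated gene start, 2866 (33.2%) were higher in MG and 460 (5.32%) lower. Inside gene spans but off the starts, 28.99% of 40263 regions were higher and 24.0% lower. Farther than 50 kb from any gene, 22.7% of 6335 regions were higher and 39.0% lower. The losses in MG were therefore most frequent far from genes and rare at starts. The start regions were wider, with a median of 635 bp against 240 bp over all tested regions. They also took a larger share of all counts in MG (34.0%, 35.8% and 35.1% in libraries 1, 2 and 3) than in MDM (31.1%, 31.5% and 33.1%). The part of this share in the start-region counts was not tested. With MG 1 alone, 1253 start regions were higher and 518 lower, so the excess of higher calls at starts was smaller. Under relative log expression scaling the start regions gave 2501 higher and 509 lower, and under total counts 2457 and 637.

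**Figure D2:**
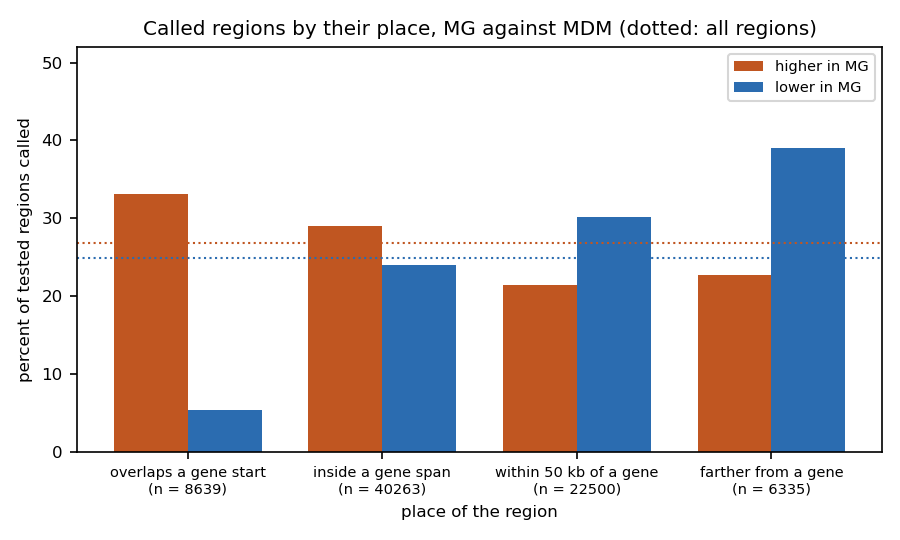
Percent of tested regions called higher (orange) or lower (blue) in MG by the place of the region, with the share over all regions dotted. At gene starts 33.2% were higher and 5.32% lower, and farther than 50 kb from a gene 22.7% were higher and 39.0% lower.

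The identifiers of the regions say in which group the authors had called a peak. Of the regions with an MG call and no MDM call, 4799 were tested and 96.7% were higher in MG. Of those with an MDM call and no MG call, 23207 were tested, and 49.98% were lower and 5.04% higher in MG. These counts follow from the peak calls, which were made on the same libraries, and are a description.

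To show base content beside the values, 3 promoters higher and 3 lower in MG are printed, chosen after their values were seen. They come from the 15 start regions per direction with the smallest p. These 15 were called, reached an absolute log2 fold change of 1 and had no overlap between the groups. Each line gives the 150 bases before a RefSeq start (GRCm38.p6), 5′ to 3′ on the gene's strand. Matches to 1 or 2 short motifs are in capitals. Sall1 has 3 RefSeq starts, of which 1 is shown. The 3 promoters higher in MG belong to Sall1 (chr8:89042863-89043012, minus strand), Bhlhe41 (chr6:145865421-145865570, minus strand) and Cd81 (chr7:143052600-143052749, plus strand). Capitals mark the GC-box letters GGGCGG on either strand.
Sall1: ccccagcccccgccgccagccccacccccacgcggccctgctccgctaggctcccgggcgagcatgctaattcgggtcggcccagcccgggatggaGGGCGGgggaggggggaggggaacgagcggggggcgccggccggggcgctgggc
Bhlhe41: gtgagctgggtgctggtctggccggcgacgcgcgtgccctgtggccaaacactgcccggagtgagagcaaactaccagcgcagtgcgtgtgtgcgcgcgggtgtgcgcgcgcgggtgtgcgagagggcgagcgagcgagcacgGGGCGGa
Cd81: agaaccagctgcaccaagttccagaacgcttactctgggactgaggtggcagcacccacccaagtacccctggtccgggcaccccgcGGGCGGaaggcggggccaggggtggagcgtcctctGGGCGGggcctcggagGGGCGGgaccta
The 3 promoters lower in MG belong to H2-Aa (chr17:34287824-34287973, minus strand), H2-Eb1 (chr17:34305717-34305866, plus strand) and Cd80 (chr16:38458783-38458932, plus strand). Capitals mark CCAAT on either strand in H2-Aa and H2-Eb1, also TGACGTCA, the cyclic AMP response element, in H2-Aa, and the AP-1 letters TGANTCA in Cd80.
H2-Aa: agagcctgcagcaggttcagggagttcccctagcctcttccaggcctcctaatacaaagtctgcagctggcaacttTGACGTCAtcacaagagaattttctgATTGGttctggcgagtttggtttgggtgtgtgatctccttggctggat
H2-Eb1: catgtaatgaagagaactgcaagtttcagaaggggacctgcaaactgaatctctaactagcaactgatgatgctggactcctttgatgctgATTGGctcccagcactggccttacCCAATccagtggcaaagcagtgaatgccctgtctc
Cd80: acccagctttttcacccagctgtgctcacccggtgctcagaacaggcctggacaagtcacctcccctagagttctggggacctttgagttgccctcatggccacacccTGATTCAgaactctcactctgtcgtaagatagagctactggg
GC content of the printed stretch was 81.3% for Sall1, 72.0% for Bhlhe41 and 70.0% for Cd81, against 50.7% for H2-Aa, 48.7% for H2-Eb1 and 55.3% for Cd80. In H2-Aa the CCAAT match begins 48 bases and the TGACGTCA match 74 bases before the start. Class II promoters are known for an X box, part of which resembles a cyclic AMP response element, and a Y box with the letters CCAAT, and whether these matches are those boxes was not tested.

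At the Sall1 start shown the region had 0.438, 0.652 and 0.171 CPM in MDM and 47.4, 27.8 and 32.2 CPM in MG, a log2 fold change of 6.09 ± 0.28. The H2-Aa start region had 68.9, 70.6 and 80.8 CPM in MDM and 11.1, 9.43 and 13.2 CPM in MG, a log2 fold change of -2.72 ± 0.16. Lack of overlap between the groups was part of the choice of both regions. Over all 21263 RefSeq promoter windows of 250 bases the median GC content was 55.6%. It was 64.4% in the 3357 windows whose start region was higher in MG, 55.2% in the 509 whose start region was lower and 60.0% in the 6390 that were tested and not called. Promoters higher in MG were thus the most GC-rich of these classes. GGGCGG was found in 42.6% of all windows, 71.0% of higher, 43.6% of lower and 61.0% of uncalled ones. Motifs of factors that act in macrophages did not all follow the same order. GAGGAAGT, a PU.1 motif, was in 2.23% of all windows, 1.52% of higher, 4.72% of lower and 3.24% of uncalled ones, which is 24 of the 509 lower windows. The AP-1 letters TGANTCA stood at 6.13%, 3.75%, 8.84% and 3.79% of the same classes, the RUNX letters TGTGGTT at 3.82%, 2.71%, 7.07% and 2.94%, and the interferon-response letters, GAAA and GAAA with any 2 bases between, at 2.96%, 1.91%, 4.91% and 2.66%. These were most frequent in the windows lower in MG. The C/EBP letters TTGCNNAA (9.09%, 6.17%, 8.45% and 7.23%), the SMAD letters CAGACA (15.2%, 11.7%, 14.9% and 12.3%) and the MEF2 letters, CTA and TAG with any 4 bases between (3.06%, 2.83%, 1.96% and 2.19%), were not above the share of all windows there. NF-kB letters GGGANTTCC were in 1.58%, 1.88%, 2.75% and 2.28%. TGACGTCA was in 1.92%, 3.34%, 1.57% and 3.02%, TCACGTGA, an E-box of lysosomal genes, in 1.01%, 2.62%, 0.982% and 1.35%, and CCAAT in 35.4%, 33.4%, 33.6% and 38.5%. All were searched on both strands, each on its own, so matches of different motifs may overlap.

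For genes, counts were summed over regions inside the gene span or within 5 kb of it. Of 15552 tested gene loci, edgeR called 6375 (41.0%), with 3074 higher in MG (19.8%) and 3301 lower (21.2%). With MG 1 alone, 16.4% were higher and 16.0% lower. The 3 MG and the 3 MDM libraries did not overlap at 7276 loci, or 46.8%. The median log2 fold change over all tested loci was -0.0040. The plot of called shares by gene list sets each list against these background shares. Counts of list members given below are to be read beside them, 19.8% higher and 21.2% lower with 3 MG libraries.

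**Figure D3:**
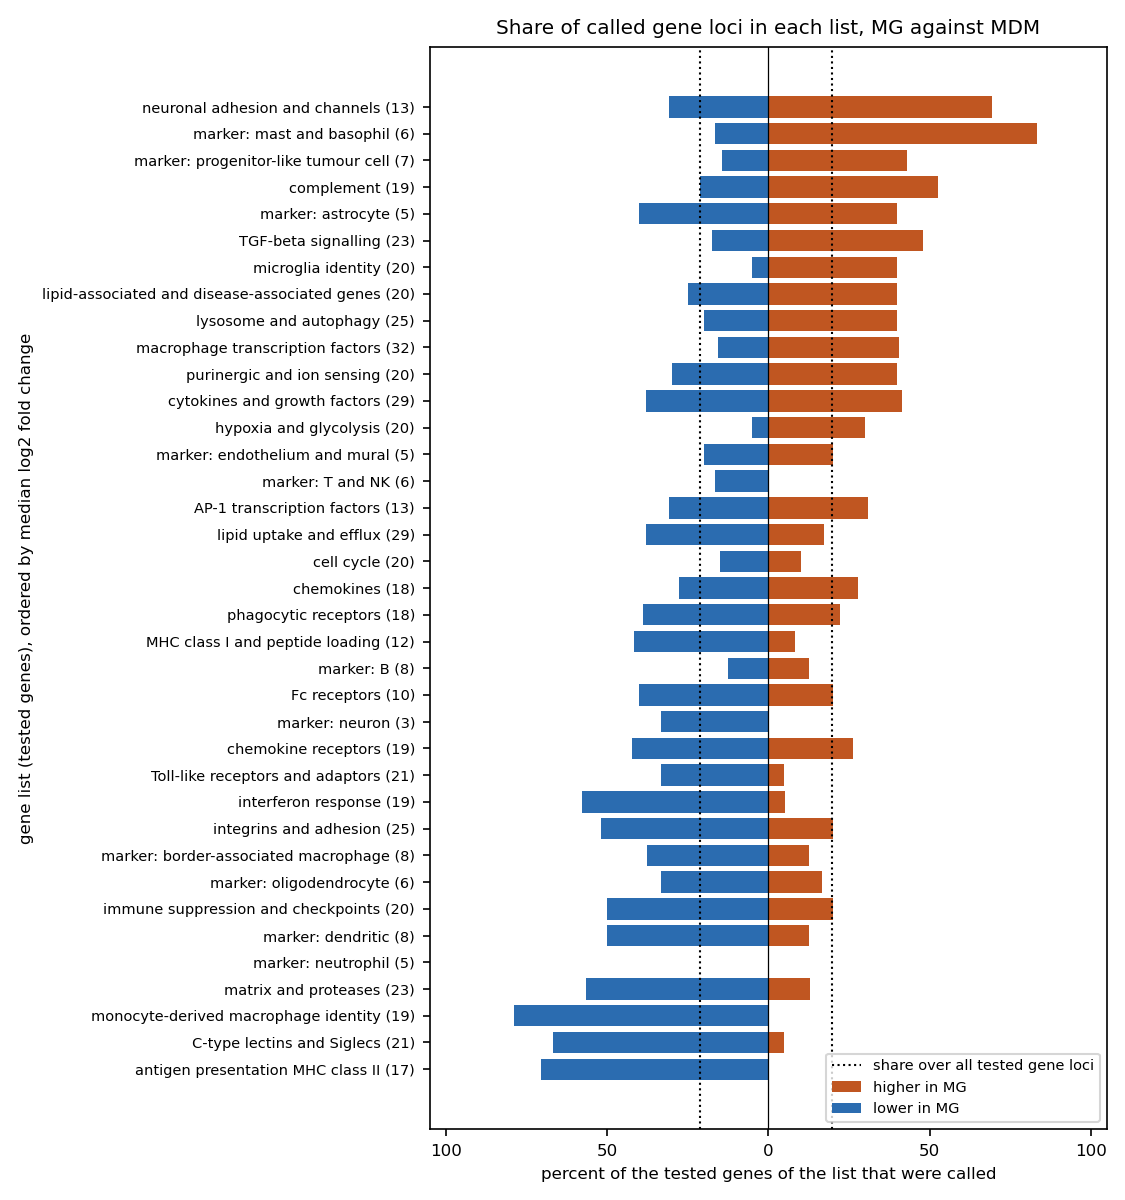
Percent of the tested genes of each list called higher (right, orange) or lower (left, blue) in MG, with the number of tested genes in brackets and the share over all tested loci dotted. The class II list is lower at 12 of 17 genes and higher at 0, and the list of neuronal adhesion and channel genes is higher at 9 of 13.

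The loci that gained most surely in MG, by smallest p among loci without overlap whose log2 fold change reached 1, were Cables1, Nova1, Ets1, Sgce, Myo1d, Bmpr1a, Pdcd1, Cdkn2a, Csmd3 and Lamc1. Nova1 (chr12:46697895-46819480), a splicing regulator best known from neurons, had 0.415, 0.615 and 0.628 CPM in MDM and 47.6, 26.9 and 36.8 CPM in MG, a log2 fold change of 6.00 ± 0.27 (edgeR, adjusted p = 3.18e-13). It was nearly closed in each MDM library and open in each MG library. Cables1, an adaptor of cyclin-dependent kinases, had 46.5, 47.1 and 42.6 CPM in MDM and 169.7, 204 and 182 CPM in MG (2.03 ± 0.09). Bmpr1a, a type I receptor for bone morphogenetic proteins, rose from 4.08, 6.15 and 3.93 CPM to 44.9, 38.5 and 47.9 CPM (3.14 ± 0.19). Ets1, a transcription factor of the ETS family, rose from 56.1, 60.4 and 59.7 CPM to 162, 144 and 157 CPM (1.39 ± 0.08). That the MG and MDM libraries did not overlap at these loci was part of the choice. Pdcd1 encodes the inhibitory receptor PD-1 and Lamc1 a laminin chain. Pdcd1 had 57.3, 54.03 and 56.7 CPM in MDM and 116, 124 and 122 CPM in MG (1.11 ± 0.07), and Lamc1 had a log2 fold change of 1.43 ± 0.09.

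The loci that lost most surely were H2-Aa, Zfp366, Myo16, Rasgrp1, Dthd1, Tnr, Scn2b, H2-Eb1, Gucy2c and Htr7. Zfp366 (chr13:99184823-99247032), a zinc-finger gene known from dendritic cells, had 131, 128 and 127 CPM in MDM and 17.001, 9.60 and 11.1 CPM in MG, a log2 fold change of -3.45 ± 0.13 (edgeR, adjusted p = 6.22e-14). Rasgrp1, which activates Ras proteins, fell from 124, 99.3 and 117 CPM to 19.04, 15.01 and 14.1 CPM (-2.86 ± 0.12). Myo16, an unconventional myosin, fell from 167, 156 and 151 CPM to 35.7, 36.7 and 39.3 CPM (-2.09 ± 0.08). Lack of overlap was part of the choice of these loci too. Some genes of this set are known from neurons or glia, such as the matrix protein gene Tnr (-2.84 ± 0.12), the sodium channel subunit gene Scn2b (-2.79 ± 0.12) and the serotonin receptor gene Htr7 (-2.35 ± 0.11), and they were open in MDM. Tnr had 99.02, 88.7 and 80.1 CPM in MDM and 11.6, 12.98 and 12.4 CPM in MG.

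Single regions were chosen by the same rule, among those within 50 kb of a gene, so their lack of overlap is part of the choice. The region with the smallest p among gains, chr12:46819330-46819744 inside Nova1, had 0.292, 0.272 and 0.171 CPM in MDM and 36.3, 25.2 and 30.5 CPM in MG. The region chr16:18733148-18733872, whose nearest gene is the endothelial junction gene Cldn5 at a distance of 42975 bases, rose from 6.65, 5.32 and 5.81 CPM to 53.01, 53.2 and 42.9 CPM (3.07 ± 0.16). Among losses, a region within 50 kb of Tmem131, chr1:36962110-36962893, fell from 82.9, 86.3 and 92.8 CPM to 11.9, 6.86 and 8.78 CPM (-3.32 ± 0.18). The nearest gene is only the nearest, and no link between region and gene was tested.

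The lineage identity genes that passed the test went mostly in the direction of their lineage. These lists were chosen with earlier results of these data known, so the counts are a description. Of 20 tested microglia identity genes 8 were higher in MG and 1 lower, with a median log2 fold change of 0.33, and with MG 1 alone 14 were higher and 1 lower. Of 19 tested monocyte-derived identity genes 0 were higher and 15 lower, with a median of -0.78, and with MG 1 alone 16 were lower. Microglia are known for high Tmem119, P2ry12 and Cx3cr1 in homeostasis. Fcrls, an Fc receptor-like gene of microglia, had 5.12, 6.50 and 5.50 CPM in MDM and 20.1, 10.8 and 16.2 CPM in MG (1.39 ± 0.22; edgeR, adjusted p = 3.28e-05). Tmem119 had 30.01, 27.4 and 34.1 CPM in MDM and 49.98, 35.3 and 45.8 CPM in MG (0.51 ± 0.12). P2ry12, an ADP receptor, had 50.8, 47.4 and 38.96 CPM in MDM and 99.97, 49.1 and 79.9 CPM in MG (0.67 ± 0.20), and its groups overlapped at MG 2. All counts of P2ry12 are shared with neighbouring genes, and its call was lost without MG 3 (edgeR, adjusted p = 0.0645). Cx3cr1, the fractalkine receptor, was open in both lineages, with 142, 131 and 144 CPM in MDM and 176, 151 and 157 CPM in MG (0.21 ± 0.08). Its call was lost when MDM 1, MDM 2, MG 1 or MG 3 was left out, with adjusted p up to 0.156.

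Several loci known from microglia and other macrophages did not pass the test with 3 MG libraries and had a larger fold change with MG 1 alone. Irf8, a transcription factor that myeloid cells need, had 70.9, 69.3 and 68.7 CPM in MDM and 126, 66.1 and 82.2 CPM in MG. This gave 0.35 ± 0.17 (edgeR, adjusted p = 0.118) and 0.86 with MG 1 alone. MG 1 and MG 3 stood above all MDM libraries at Irf8, while MG 2 lay under their range. P2ry13, Mef2c, Spi1, Tlr4 and Csf1r had log2 fold changes of up to 0.29 that did not pass the test, and read 0.36 to 0.56 with MG 1 alone. Spi1, which encodes PU.1, was near the threshold (0.29 ± 0.11; edgeR, adjusted p = 0.0513) and passed under relative log expression scaling (0.31, adjusted p = 0.0341). Selplg, a selectin ligand on the microglia list, was the member lower in MG, with 163, 149 and 155 CPM in MDM and 109.8, 86.7 and 84.7 CPM in MG (-0.75 ± 0.11).

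**Figure D4:**
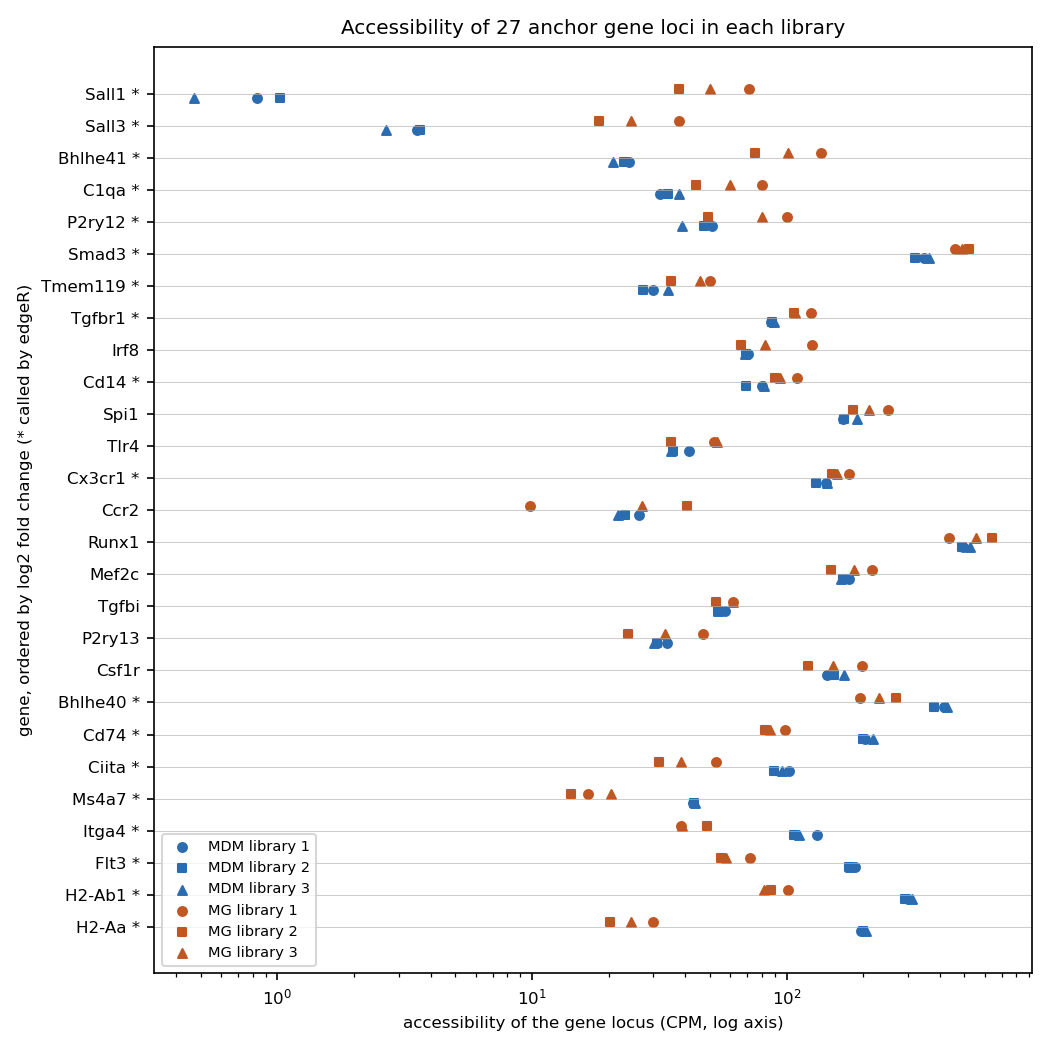
Accessibility in CPM (log axis) of 27 gene loci in the 3 MDM (blue) and 3 MG (orange) libraries, ordered by log2 fold change, with an asterisk where edgeR called the locus. Sall1 and Sall3 lie farthest to the MG side and H2-Aa and H2-Ab1 farthest to the MDM side, and Ccr2 has MG libraries on both sides of the MDM libraries.

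On the monocyte-derived side, the integrin subunit gene Itga4 had 132, 107 and 112 CPM in MDM and 38.4, 48.6 and 38.9 CPM in MG (-1.46 ± 0.11; edgeR, adjusted p = 8.34e-10). Clec12a, an inhibitory lectin receptor of myeloid cells, had 78.1, 64.5 and 65.8 CPM in MDM and 18.02, 25.02 and 19.8 CPM in MG (-1.69 ± 0.12). Ms4a7, a membrane protein of monocyte-derived macrophages, had 42.9, 43.5 and 43.8 CPM in MDM and 16.7, 14.2 and 20.4 CPM in MG (-1.36 ± 0.14). None of the 3 overlapped between groups. Ahnak, a large scaffold protein, and Plac8 fell by a log2 of 1.03 and 1.11, and the mannose receptor gene Mrc1 by 1.03. Tgfbi, a matrix protein on the same list, did not pass the test, with 57.1, 53.9 and 53.6 CPM in MDM and 61.9, 53.02 and 61.6 CPM in MG. Ccr2, the receptor that draws monocytes out of the marrow, had 26.3, 23.2 and 21.8 CPM in MDM and 9.86, 40.6 and 27.1 CPM in MG. It did not pass the test (0.20 ± 0.31; edgeR, adjusted p = 0.639), and with MG 1 alone its log2 fold change was -1.28. Without MG 1 it was higher in MG at 0.54 (adjusted p = 0.00295).

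Among 32 tested macrophage transcription factors 13 were higher in MG and 5 lower, and with MG 1 alone 17 and 4. Sall1 (chr8:89027242-89044162) is required for the microglial state, and the region at 1 of its starts was described above. Its relative Sall3 was higher as well, with 3.53, 3.64 and 2.67 CPM in MDM and 37.7, 18.4 and 24.4 CPM in MG (2.92 ± 0.23). Bhlhe41 and Bhlhe40, related repressors of the clock, ran in opposite directions. Bhlhe41 had 23.995, 23.04 and 20.7 CPM in MDM and 137, 75.1 and 101 CPM in MG (2.16 ± 0.19; edgeR, adjusted p = 2.05e-06), and Bhlhe40 had 414, 381 and 425 CPM in MDM and 194, 269 and 231 CPM in MG (-0.80 ± 0.09; adjusted p = 5.88e-07). Neither overlapped between groups. Irf4, an interferon regulatory factor of dendritic cells and alternatively activated macrophages, fell from 60.4, 64.3 and 58.1 CPM to 37.4, 21.5 and 27.1 CPM (-1.16 ± 0.13). Higher calls of moderate size included Maf (0.76 ± 0.13), Egr1 (0.69 ± 0.09), Egr2 (0.70 ± 0.10), Cebpa (0.54 ± 0.08), Zeb2 (0.49 ± 0.08) and Mef2a (0.39 ± 0.08), all factors of myeloid differentiation or activation. Klf4, a zinc-finger factor of monocytes, fell by a log2 of 0.45, and with MG 1 alone the value was -0.12 (adjusted p = 0.498). Of 13 AP-1 genes 4 were higher and 4 lower, beside 19.8% and 21.2% of all tested loci. Leaving out 1 library at a time gave 2 to 4 in each direction. Maff, a small Maf partner of these factors, had 339, 343 and 391 CPM in MDM and 276, 217 and 219 CPM in MG (-0.60 ± 0.09).

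Transforming growth factor beta signals through type I and type II receptors to Smad proteins, and 11 of 23 tested genes of the pathway were higher in MG and 4 lower (10 and 3 with MG 1 alone). The receptor gene Tgfbr1 had 86.7, 87.4 and 89.4 CPM in MDM and 124, 107 and 108 CPM in MG (0.36 ± 0.07; edgeR, adjusted p = 0.000611). Its partner Tgfbr2 had 159, 148 and 142 CPM in MDM and 229.9, 198 and 212 CPM in MG (0.50 ± 0.08). The signal transducer gene Smad3 had 347, 319 and 362 CPM in MDM and 459, 521 and 489.6 CPM in MG (0.52 ± 0.09). The differences were small against the level but the groups did not overlap at any of the 3. Smad2 (0.40 ± 0.08), the inhibitor gene Smad7 (0.55 ± 0.08) and the corepressor gene Ski (0.54 ± 0.08) were higher too. Smad6, an inhibitor of bone morphogenetic protein signals, was lower, with 171, 162 and 181 CPM in MDM and 122, 104 and 102 CPM in MG (-0.66 ± 0.08). The ligand gene Tgfb1 was lower at -0.32 ± 0.08, but 92.1% of its counts are shared with neighbours, and without the 5 kb flank its value was 0.04 (edgeR, adjusted p = 0.712).

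Genes of antigen presentation through MHC class II were called in the direction of loss alone. Of 17 tested genes 12 were lower and 0 higher, with a median log2 fold change of -1.23, and 13 were lower with MG 1 alone. H2-Aa (chr17:34282744-34287823), the alpha chain of I-A, had 196, 199 and 206 CPM in MDM and 29.9, 20.3 and 24.6 CPM in MG (-3.06 ± 0.11; edgeR, adjusted p = 1.92e-14). H2-Eb1, the beta chain of I-E, had 228, 236 and 247 CPM in MDM and 48.96, 37.2 and 41.8 CPM in MG (-2.50 ± 0.11). H2-Ab1, the beta chain of I-A, had 301, 293 and 310.1 CPM in MDM and 102, 86.6 and 81.8 CPM in MG (-1.75 ± 0.09). All were lower in each MG library, yet none was closed there. The whole list summed to 2497 to 2653 CPM in MDM, 1200 to 1414 CPM in MG and 1440 to 1600 CPM in lipid-laden MDM. A sum below that of MDM was thus not particular to MG. Ciita, the coactivator on which class II transcription depends, had 102, 89.2 and 95.7 CPM in MDM and 53.04, 31.7 and 38.5 CPM in MG (-1.28 ± 0.12). Cd74, the invariant chain, had 203, 200.3 and 218 CPM in MDM and 98.6, 82.6 and 85.98 CPM in MG (-1.23 ± 0.08). The groups were apart at both. H2-DMb1 (-2.04 ± 0.12), which helps load peptides, was lower with 69.9% of its counts shared with neighbours, whereas its partner H2-DMa did not pass the test (0.01 ± 0.08; edgeR, adjusted p = 0.925). Rfx5, a factor that binds class II promoters, also did not pass (-0.14 ± 0.09; adjusted p = 0.242).

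The class II list also holds the costimulatory genes Cd86, Cd40 and Cd80, whose products help activate T cells. Cd86 had 286, 264 and 279 CPM in MDM and 160.1, 95.4 and 116 CPM in MG (-1.19 ± 0.12; edgeR, adjusted p = 8.51e-07), and 17 of its 19 tested regions were lower. Cd40, the receptor for CD40 ligand, had 128, 124 and 129.8 CPM in MDM and 59.8, 28.1 and 32.6 CPM in MG (-1.75 ± 0.21), or -1.09 with MG 1 alone. Cd80 was lower over the locus (-0.91 ± 0.10) and more so at its start (-2.96 ± 0.23). All 3 genes were called lower in MG. Of 12 MHC class I and peptide-loading genes 1 was higher and 5 lower, and with MG 1 alone 0 and 2.

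Dendritic cell markers were lower at 4 of 8 tested genes and higher at 1 (4 and 2 with MG 1 alone), and the list summed to 719 to 779 CPM in the MDM libraries and 517 to 583 CPM in the MG libraries. Flt3, the growth factor receptor of dendritic cells, had 186, 175 and 177 CPM in MDM and 72.1, 55.2 and 57.8 CPM in MG (-1.57 ± 0.10; edgeR, adjusted p = 4.97e-11). Ccr7, which guides migratory dendritic cells to lymph nodes, had 87.3, 70.9 and 78.2 CPM in MDM and 14.3, 10.6 and 12.2 CPM in MG (-2.72 ± 0.15). Kit, the stem cell factor receptor, had 95.8, 93.5 and 90.2 CPM in MDM and 7.14, 21.5 and 15.8 CPM in MG (-2.52 ± 0.21). Each was open in every MDM library and far lower in every MG library. Zbtb46 (-0.07 ± 0.08) and Xcr1 (-0.15 ± 0.10), markers of classical dendritic cells, did not pass the test (edgeR, adjusted p = 0.482 and 0.24). In the lipid-laden MDM libraries the list summed to 508 to 541 CPM, so its lower sum was not particular to MG. The part of dendritic cells in the MDM libraries was not tested.

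Of 21 C-type lectin and Siglec genes, which bind sugars on microbes and host cells, 14 were lower in MG and 1 higher, with a median of -1.03, and with MG 1 alone 13 and 1. Clec7a, the beta-glucan receptor Dectin-1, had 45.3, 45.3 and 37.2 CPM in MDM and 12.2, 11.9 and 12.2 CPM in MG (-1.83 ± 0.14; edgeR, adjusted p = 7.5e-10). Clec4n, the mannan receptor Dectin-2, had 23.5, 23.2 and 23.6 CPM in MDM and 4.08, 3.79 and 3.57 CPM in MG (-2.62 ± 0.21). Clec10a, a galactose-type lectin, had 18.3, 18.9 and 15.7 CPM in MDM and 6.12, 4.46 and 3.99 CPM in MG (-1.92 ± 0.21). The groups did not overlap at these lectins. Cd33 (-1.04 ± 0.11) and Siglece (-1.16 ± 0.11), inhibitory receptors for sialic acid, were lower by about the same size.

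Of 21 Toll-like receptor and adaptor genes 7 were lower and 1 higher in MG, and with MG 1 alone 8 and 4. Tlr5, the flagellin receptor, had 42.4, 44.96 and 40.8 CPM in MDM and 22.1, 16.1 and 22.7 CPM in MG (-1.11 ± 0.14; edgeR, adjusted p = 1.18e-06). Tlr6, a partner of Tlr2, had 126, 119 and 146 CPM in MDM and 94.9, 90.4 and 104 CPM in MG (-0.42 ± 0.09). Cd14, a coreceptor for lipopolysaccharide, was the member higher in MG, with 80.1, 69.3 and 81.2 CPM in MDM and 110.2, 90.1 and 94.2 CPM in MG (0.34 ± 0.11). Its call was lost without MDM 2 (edgeR, adjusted p = 0.0830) and without the 5 kb flank (0.0713). Tlr2 and Tlr7, which sense lipoproteins and RNA, did not pass the test with 3 MG libraries (0.38 ± 0.18 and 0.44 ± 0.20) and read 0.86 and 0.96 with MG 1 alone.

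In total 4 of 18 phagocytic receptor genes were higher in MG and 7 lower (5 and 7 with MG 1 alone). The share of these genes called higher lay near the 19.8% of all tested loci. Trem1, an amplifier of inflammation, had 91.1, 87.5 and 93.2 CPM in MDM and 33.3, 31.4 and 38.9 CPM in MG (-1.39 ± 0.10; edgeR, adjusted p = 5.61e-10). Timd4, a receptor for phosphatidylserine on resident macrophages of other tissues, had 10.7, 12.3 and 10.5 CPM in MDM and 2.04, 1.08 and 0.631 CPM in MG (-3.28 ± 0.34). Mertk, a receptor tyrosine kinase that drives engulfment of dying cells, went the other way, with 69.8, 83.9 and 74.6 CPM in MDM and 186, 94.8 and 135 CPM in MG (0.82 ± 0.21). Its bridging ligands were also higher: Gas6 rose from 4.98, 5.48 and 4.24 CPM to 21.1, 11.5 and 15.6 CPM (1.62 ± 0.22) with all counts shared with a neighbour, and Pros1 from 13.3, 11.8 and 9.27 CPM to 24.1, 15.4 and 17.4 CPM (0.66 ± 0.18). Of 10 Fc receptor genes 2 were higher and 4 lower, beside 19.8% and 21.2% of all tested loci.

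Complement genes were higher at 10 of 19 tested loci and lower at 4 (9 and 1 with MG 1 alone). C3ar1, the receptor for C3a, had 32.1, 35.4 and 36.8 CPM in MDM and 79.9, 71.01 and 73.8 CPM in MG (1.11 ± 0.09; edgeR, adjusted p = 2.44e-09). C5ar1, the receptor for C5a, had 115, 117 and 127 CPM in MDM and 160.1, 176 and 170.1 CPM in MG (0.50 ± 0.08). C1qa, a chain of C1q, had 31.9, 34.3 and 37.7 CPM in MDM and 80.2, 44.1 and 59.9 CPM in MG (0.79 ± 0.16), with 60.2% of its counts shared. MG 1 was the highest C1qa library, and all MG libraries exceeded MDM. Cd55 was called higher (1.06 ± 0.33) through MG 2 and MG 3 alone, with 4.76, 20.8 and 10.3 CPM in MG against 5.88, 7.43 and 4.87 CPM in MDM and -0.40 with MG 1 alone (edgeR, adjusted p = 0.534). The integrin chains of the complement receptors, Itgam (-0.46 ± 0.13) and Itgax (-0.50 ± 0.11), were lower and lost their calls with MG 1 alone (-0.30 and -0.22; adjusted p = 0.0719 and 0.198).

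Integrin and adhesion genes were lower at 13 of 25 tested loci and higher at 5 (9 and 5 with MG 1 alone). Chemokine receptor genes were lower at 8 of 19 and higher at 5 (9 and 4 with MG 1 alone). Pecam1, which supports passage through endothelium, had 158, 178 and 175 CPM in MDM and 96.2, 102 and 87.7 CPM in MG (-0.83 ± 0.08; edgeR, adjusted p = 2.96e-08). Ccr9, known from lymphocytes that home to the gut, had 56.8, 57.3 and 59.9 CPM in MDM and 29.9, 17.2 and 24.6 CPM in MG (-1.34 ± 0.15). Cxcr4, the receptor for Cxcl12, had 138, 112 and 132 CPM in MDM and 52.4, 104.6 and 70.8 CPM in MG (-0.69 ± 0.17). MG 2 was the MG library nearest to MDM at Cxcr4. Ackr3, a scavenging receptor for the same ligand, was low in both groups and higher in MG, with 1.18, 0.768 and 0.471 CPM in MDM and 3.06, 3.25 and 3.78 CPM in MG (1.95 ± 0.38). Ccr1, a receptor for inflammatory chemokines, had 10.6, 9.37 and 7.70 CPM in MDM and 6.46, 28.3 and 16.6 CPM in MG, was called higher at 0.97 ± 0.31 and had -0.54 with MG 1 alone (edgeR, adjusted p = 0.289).

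Purinergic receptors and ion channels, with which microglia sense injury, were higher at 8 of 20 tested loci and lower at 6, and the same numbers held with MG 1 alone. Kcnma1, a large-conductance potassium channel, had 6.09, 4.25 and 3.77 CPM in MDM and 124, 60.9 and 87.9 CPM in MG (4.18 ± 0.26; edgeR, adjusted p = 2.3e-07). Trpm2, a cation channel opened by oxidative stress, had 7.81, 8.09 and 7.54 CPM in MDM and 35.7, 20.8 and 29.01 CPM in MG (1.81 ± 0.18). P2rx7, the ATP-gated channel upstream of the inflammasome, had 66.2, 72.9 and 62.5 CPM in MDM and 95.9, 104 and 105.3 CPM in MG (0.60 ± 0.09). Each MG library exceeded each MDM library at these channels. Hvcn1, the proton channel of the phagocyte oxidative burst, was lower, with 177, 174 and 192 CPM in MDM and 126, 94.7 and 93.1 CPM in MG (-0.81 ± 0.10). Adora2a, an anti-inflammatory adenosine receptor, was lower too (-0.95 ± 0.18, and -1.65 with MG 1 alone).

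Secreted factors were divided. Among 18 chemokine genes 5 were higher and 5 lower in MG (5 and 6 with MG 1 alone), and among 29 cytokine and growth factor genes 12 were higher and 11 lower (11 and 12). Ccl4, an inflammatory chemokine, had 125, 124 and 137 CPM in MDM and 263, 413 and 316 CPM in MG (1.37 ± 0.12; edgeR, adjusted p = 2.01e-07). Ccl12, a monocyte attractant, had 11.7, 11.5 and 9.74 CPM in MDM and 54.7, 29.6 and 28.2 CPM in MG (1.70 ± 0.20, and 2.29 with MG 1 alone). Ccl22, a ligand of Ccr4 on regulatory T cells, had 25.4, 23.2 and 24.04 CPM in MDM and 6.80, 4.19 and 4.20 CPM in MG (-2.33 ± 0.20). Ccl4 and Ccl12 thus stood on the side opposite to Ccl22. Csf1, the growth factor of macrophages, rose from 45.4, 45.5 and 44.5 CPM to 76.2, 103 and 74.8 CPM (0.93 ± 0.10). Igf1, an insulin-like growth factor, rose from 2.63, 3.64 and 2.36 CPM to 6.80, 6.36 and 6.52 CPM (1.12 ± 0.26). Pdgfb, the gene of the factor that drives these tumours, had 66.7, 62.8 and 65.4 CPM in MDM and 179.5, 83.3 and 115 CPM in MG (0.91 ± 0.23), and its call was lost without the flank (0.62; edgeR, adjusted p = 0.0586). Whether any of these counts come from the introduced PDGFB sequence was not tested. Il6 was called higher (1.05 ± 0.24) with 31.96, 74.9 and 53.8 CPM in MG against 32.4, 23.4 and 24.7 CPM in MDM, and had 0.25 with MG 1 alone (edgeR, adjusted p = 0.39).

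The 11 lower cytokine genes included Il10, an anti-inflammatory interleukin, which had 92.04, 87.6 and 102 CPM in MDM and 53.7, 49.9 and 59.3 CPM in MG (-0.79 ± 0.09; edgeR, adjusted p = 5.76e-07). Il12a, a subunit of interleukin 12, had 16.3, 13.3 and 14.6 CPM in MDM and 6.80, 7.57 and 5.05 CPM in MG (-1.17 ± 0.20). Il1rn, the interleukin 1 receptor antagonist, had 64.7, 61.7 and 77.6 CPM in MDM and 41.5, 28.9 and 40.4 CPM in MG (-0.90 ± 0.13). All 3 were lower in each MG library. Tnf (0.57 ± 0.09) and Osm (0.48 ± 0.09), inflammatory cytokines, were higher, and all counts of Tnf are shared with neighbouring genes.

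Matrix and protease genes were lower at 13 of 23 tested loci and higher at 3 (12 and 3 with MG 1 alone). Adamts1, a metalloprotease that cleaves proteoglycans, was higher in MG, with 0.761, 2.05 and 2.04 CPM in MDM and 70.04, 39.9 and 61.2 CPM in MG (5.12 ± 0.27; edgeR, adjusted p = 1.57e-09). Timp2, an inhibitor of metalloproteases, had 32.7, 35.9 and 32.8 CPM in MDM and 78.9, 70.1 and 75.7 CPM in MG (1.13 ± 0.10). Col4a1, a chain of basement membrane collagen, had 70.6, 68.8 and 66.1 CPM in MDM and 21.4, 18.8 and 22.1 CPM in MG (-1.74 ± 0.11). No library of either group crossed into the other at these loci. Mmp14, a membrane-bound collagenase, fell by a log2 of 1.27 with 50.8% of its counts shared, and Fn1, fibronectin, by 0.72.

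Of 29 lipid uptake and efflux genes 5 were higher and 11 lower in MG, although both groups were sorted without lipid load, and with MG 1 alone 9 were higher and 6 lower. Olr1, the receptor for oxidised low-density lipoprotein, had 74.1, 68.98 and 67.1 CPM in MDM and 29.9, 34.4 and 25.4 CPM in MG (-1.21 ± 0.10; edgeR, adjusted p = 6.54e-09). Cd36, a fatty acid and lipoprotein receptor, had 94.1, 91.8 and 94.3 CPM in MDM and 64.9, 42.1 and 61.4 CPM in MG (-0.77 ± 0.11). Fabp4, a fatty acid carrier, had 18.05, 20.7 and 19.2 CPM in MDM and 11.2, 5.55 and 8.20 CPM in MG (-1.31 ± 0.21). Uptake genes were thus lower in MG at these 3 loci. Apoc1 and Apoe, neighbouring apolipoprotein genes that share all their counts with other genes, were higher (2.23 ± 0.29 and 0.57 ± 0.11). Abcg1, a cholesterol exporter, had 93.6, 88.8 and 80.3 CPM in MDM and 145, 108 and 106 CPM in MG (0.43 ± 0.11). The sterol sensor gene Nr1h3 had 217, 209 and 235 CPM in MDM and 145, 121 and 140.2 CPM in MG (-0.71 ± 0.08), with 70.5% of its counts shared.

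Lysosome and autophagy genes were higher at 10 of 25 tested loci and lower at 5, and with MG 1 alone 11 and 0. Ctsd, the aspartic protease cathepsin D, had 37.1, 36.7 and 33.2 CPM in MDM and 116, 93.5 and 95.01 CPM in MG (1.48 ± 0.10; edgeR, adjusted p = 1.73e-10). Ctsl, a cysteine protease, had 34.5, 36.1 and 39.7 CPM in MDM and 76.8, 61.4 and 57.8 CPM in MG (0.82 ± 0.11). Ctss, which trims the invariant chain of class II, went the other way, with 56.4, 48.5 and 45.2 CPM in MDM and 43.9, 24.8 and 29.4 CPM in MG (-0.69 ± 0.16). The Ctss call was lost with MG 1 alone (-0.20; edgeR, adjusted p = 0.344). Of 20 genes known from lipid-associated macrophages and disease-associated microglia 8 were higher and 5 lower (10 and 3 with MG 1 alone). Cd9, a tetraspanin of that state, had 137, 134 and 137 CPM in MDM and 217, 356 and 268 CPM in MG (1.06 ± 0.14). Cst7, a cystatin, had 20.8, 19.8 and 21.7 CPM in MDM and 31.6, 62.8 and 39.5 CPM in MG (1.16 ± 0.17). Spp1, osteopontin, was lower, with 19.6, 20.3 and 17.8 CPM in MDM and 13.9, 14.1 and 13.5 CPM in MG (-0.48 ± 0.15), and lost its call without MDM 2 or MG 3 and with MG 1 alone.

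Interferon response genes were lower at 11 of 19 tested loci and higher at 1, but with MG 1 alone only 3 were lower and 1 higher. Irf7, which amplifies type I interferon, had 74.96, 71.9 and 71.2 CPM in MDM and 41.8, 52.1 and 50.7 CPM in MG (-0.57 ± 0.10; edgeR, adjusted p = 0.000141), with all counts shared. Ifit2 had 33.1, 34.9 and 32.2 CPM in MDM and 28.6, 19.1 and 17.9 CPM in MG (-0.66 ± 0.15), and -0.23 with MG 1 alone (edgeR, adjusted p = 0.379). MG 1 lay nearer to MDM at Ifit2 than MG 2 and MG 3 did.

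Checkpoint and suppression genes were lower at 10 of 20 tested loci and higher at 4 (10 and 5 with MG 1 alone). Cd274, the ligand PD-L1, had 197, 191 and 194 CPM in MDM and 97.6, 119 and 104 CPM in MG (-0.85 ± 0.08; edgeR, adjusted p = 2.39e-08). Pdcd1lg2, the ligand PD-L2, had 210.5, 204 and 210.2 CPM in MDM and 82.96, 143 and 106 CPM in MG (-0.88 ± 0.12). Their receptor gene Pdcd1 was higher in MG, as given above, so receptor and ligands stood on opposite sides. Il4ra, the receptor chain for interleukins 4 and 13, had 225, 218 and 247 CPM in MDM and 133, 97.5 and 122 CPM in MG (-0.98 ± 0.10). Of 20 hypoxia and glycolysis genes 6 were higher and 1 lower (4 and 3 with MG 1 alone), and the higher ones included the vasodilator peptide gene Adm (0.94 ± 0.14) and the glycolytic activator gene Pfkfb3 (0.35 ± 0.08). Of 20 cell cycle genes 2 were higher and 3 lower (2 and 6 with MG 1 alone). Over all tested loci 19.8% were higher and 21.2% lower, so neither cell cycle count with 3 MG libraries lay above these shares. Mki67, the proliferation marker, had 96.3, 88.4 and 104 CPM in MDM and 58.5, 57.9 and 55.9 CPM in MG (-0.74 ± 0.09).

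Of 13 tested neuronal adhesion and channel genes 9 were higher and 4 lower, with a median of 2.03, and with MG 1 alone 8 and 3. Rbfox1, a splicing factor, had 5.53, 4.61 and 2.04 CPM in MDM and 89.1, 52.8 and 81.6 CPM in MG (4.02 ± 0.26; edgeR, adjusted p = 1.73e-07). Nav3, a microtubule-binding navigator protein, had 4.29, 6.55 and 4.71 CPM in MDM and 80.2, 41.7 and 52.8 CPM in MG (3.39 ± 0.22). Csmd3, a large membrane protein, had 1.04, 1.69 and 0.786 CPM in MDM and 25.5, 15.96 and 19.8 CPM in MG (3.94 ± 0.26). Dscam, an adhesion gene of synapses, ran the other way. Dscam had 91.1, 81.1 and 61.7 CPM in MDM and 33.3, 29.4 and 34.1 CPM in MG (-1.30 ± 0.12). Of the 3 tested marker genes of neurons themselves 0 were higher and 1 lower.

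Markers of the other cells of a brain tumour were called in both directions. Each list held few tested genes, and over all tested loci 19.8% were higher and 21.2% lower. Of 6 oligodendrocyte markers 1 was higher and 2 lower, of 5 astrocyte markers 2 and 2, of 5 endothelial and mural markers 1 and 1, of 6 T and NK cell markers 0 and 1, and of 8 B cell markers 1 and 1. Of 5 neutrophil markers 0 passed the test, and of 8 markers of border-associated macrophages 1 was higher and 3 lower. Of 7 markers of progenitor-like tumour cells 3 were higher and 1 lower. Cspg4, the proteoglycan NG2, had 15.8, 16.1 and 10.2 CPM in MDM and 36.7, 26.6 and 32.6 CPM in MG (1.12 ± 0.15; edgeR, adjusted p = 5.34e-06). Slc1a3, the glutamate transporter of astrocytes, had 9.54, 9.68 and 5.66 CPM in MDM and 58.5, 22.99 and 34.7 CPM in MG (2.09 ± 0.30). Olig2, a defining factor of oligodendrocyte progenitors, had 6.36, 5.22 and 5.66 CPM in MDM and 4.76, 1.22 and 2.94 CPM in MG (-1.15 ± 0.34), and -0.27 with MG 1 alone (edgeR, adjusted p = 0.702). Mbp, myelin basic protein, had 313, 296 and 304 CPM in MDM and 225, 228 and 214 CPM in MG (-0.45 ± 0.07). With MG 1 alone the counts of these 8 lists moved by at most 1 gene in each direction. Summed over the progenitor list, MDM libraries ranged from 46.3 to 57.9 CPM and MG libraries from 71.4 to 99.97 CPM, without overlap. The sums of 4 other lists lay lower in MG without overlap. They were 385 to 403 CPM in the MDM and 288 to 318 CPM in the MG libraries for oligodendrocytes, 361 to 389 and 301 to 356 CPM for endothelium and mural cells, 134 to 143 and 113 to 130 CPM for neutrophils, and 304 to 307 and 247 to 297 CPM for border-associated macrophages. The sums overlapped for astrocytes (152 to 169 and 142 to 187 CPM), neurons (71.8 to 88.0 and 66.1 to 73.8 CPM), T and NK cells (196 to 202 and 177 to 201 CPM) and B cells (161 to 163 and 134 to 174 CPM). Mbp made up most of the oligodendrocyte sum in each MDM and MG library, and the vessel sum includes Pecam1, which was lower in MG as given above. Some listed genes had no counted region matched to their name, so accessibility there could not be read. These were Aqp4, Gjb6 and Sox9 (astrocyte), Snap25, Syt1, Gad2 and Slc17a6 (neuron), and Cldn5 and Rgs5 (vessel). Ly6g, Ngp and Camp (neutrophil), Ncr1 (NK cell) and Fcer1a (mast cell) were further such genes. The part of other cells in these values was not tested. The mast cell and basophil list had 5 of 6 members higher and 1 lower, and 1 and 1 with MG 1 alone, so most of its calls rest on MG 2 and MG 3.

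Differences were grouped along chromosomes. Runs of at least 10 neighbouring tested regions, all called in the same direction with gaps under 50 kb, numbered 39 for gains and 81 for losses. The longest was a run of losses over the class II genes from H2-Ob to H2-Eb2, chr17:34239391-34331799, with 36 regions in 92.4 kb. Its regions summed to 1125, 1112 and 1205 CPM in MDM and 330.3, 327 and 288 CPM in MG. The median log2 fold change per region was -1.96, the lowest was -5.15, and 34 of the 36 regions were also called with MG 1 alone. A run of 25 regions beside Sec61b and Nr4a3, an orphan nuclear receptor gene, chr4:47696088-47905867, had the lowest median of the 5 longest, -3.99. It summed to 274, 272 and 261 CPM in MDM and 28.2, 20.4 and 17.3 CPM in MG, and all 25 regions were also called with MG 1 alone. Runs of losses also covered Jarid2, a partner of the Polycomb complex (30 regions), Zfp366 and its neighbours (29) and Alpk2 and Malt1 (27).

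Among runs of gains, Magi1, a scaffold protein of cell junctions, had the highest median of the 5 longest, with 16 regions in 126 kb at chr6:94158604-94284321 and a median log2 fold change of 4.21. They summed to 8.55, 6.85 and 3.76 CPM in MDM and 187, 112 and 149 CPM in MG. The other long runs of gains lay at Cables1 (19 regions), Gata2 and its neighbours (17), 1700017B05Rik and Ppcdc (16) and Zcchc14 and Jph3 (16). The Gata2 run summed to 36.3, 37.98 and 32.3 CPM in MDM and 139, 496 and 293 CPM in MG, and the Ppcdc run to 140.3, 144 and 171 CPM in MDM and 270.2, 620.4 and 428 CPM in MG. MG 2 was highest in both, as at the mast cell and basophil loci. Of their regions, 15 of 17 and 9 of 16 were also called with MG 1 alone.

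**Figure D5:**
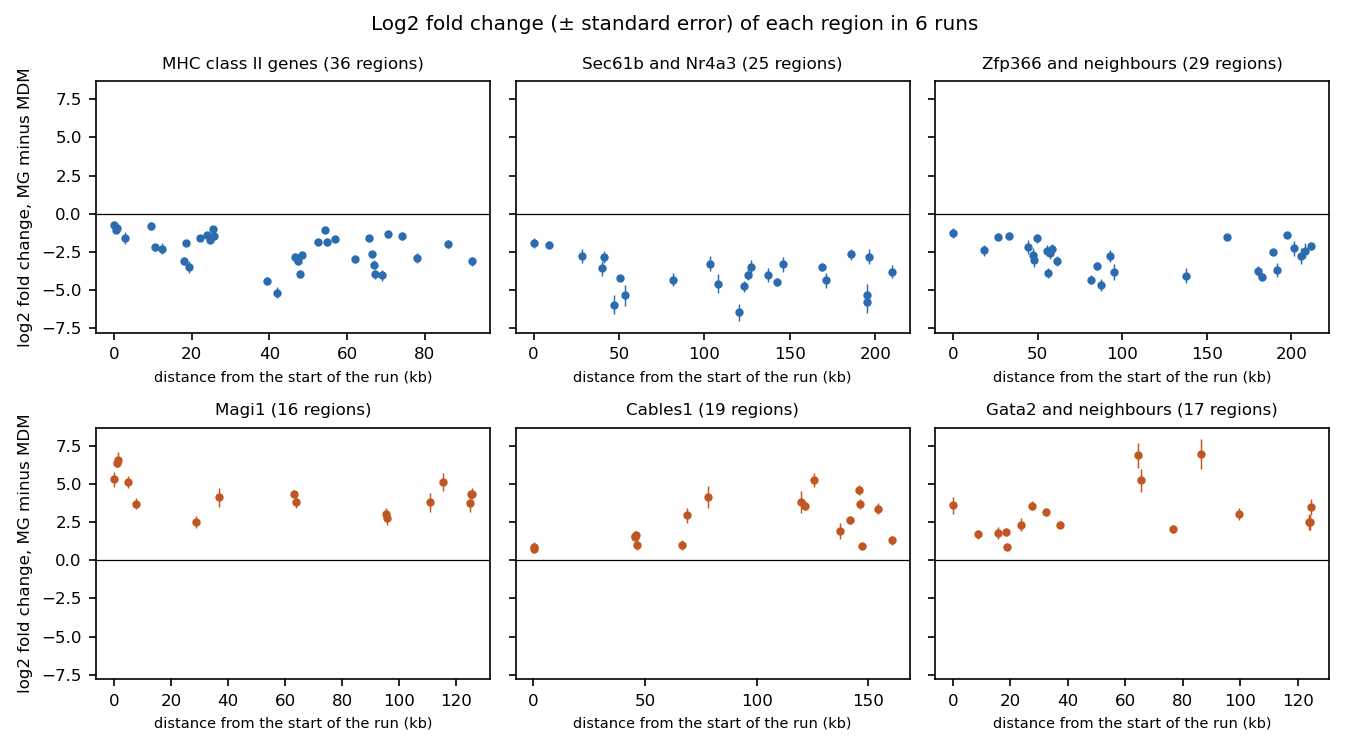
Log2 fold change with its standard error of each region in 6 of the longest runs, against the distance from the start of the run in kb. The 36 regions of the class II run lie between -5.15 and -0.75, and the 16 regions of the Magi1 run between 2.48 and 6.57.

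Many loci held called regions without a call over the whole locus, which does not show that their sum was the same in both groups. Of 15277 genes with a tested region 11093 held at least 1 called region, and 5256 of these had a locus that was tested and not called. Called regions in both directions occurred at 3106 genes. At least 3 in each direction occurred at 416, of which 252 were not called as a locus. Runx1, a regulator of blood cell development, had 15 higher and 10 lower regions among 41, and the locus did not pass the test (0.12 ± 0.10; edgeR, adjusted p = 0.377). Its region chr16:92715558-92715797 had 5.84, 6.14 and 4.79 CPM in MDM and 19.6, 32.6 and 24.6 CPM in MG (2.19 ± 0.21), and chr16:92822062-92822404 had 28.6, 33.3 and 38.6 CPM in MDM and 8.16, 13.6 and 10.000 CPM in MG (-1.60 ± 0.19). The groups were apart at both regions. Sgms1, a sphingomyelin synthase, had 14 higher and 21 lower regions among 49 and a locus value of -0.03. Elmo1, which links engulfment receptors to the actin cytoskeleton, had 19 higher and 6 lower regions, and Ptpre, a receptor tyrosine phosphatase, 10 and 13. At other genes every called region went the same way: Magi1 was higher at 25 of 25 regions, Frmd4a, a scaffold protein, at 27 of 39, and Vav3, a guanine nucleotide exchange factor, was lower at 23 of 23.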

How the data were processed

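Sorted cells were tagmented with a home-made Tn5 and amplified in 2 PCR rounds (9 cycles each), per the labels' protocols. The genome build mm10, Picard 2.12.0, deepTools 3.5.1, BWA 0.7.17-r1188 and SAMtools 1.10 are named, without role, per the submitters' processing notes. The peak caller, the removal of duplicates and an offset for Tn5 cuts were not given in the sources used here. Values used are counts as deposited by the authors, whole numbers in 117835 regions for 12 libraries, and coordinates are those of the deposited file.

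Regions were filtered with filterByExpr, scaled with TMM and tested with edgeR 4.0.16 (glmQLFit robust, glmQLFTest; R 4.3.3) in 1 model of 4 groups, reading MG minus MDM, with Benjamini-Hochberg adjusted p under 0.05 as a call. Gene loci are sums over regions within a protein-coding span or 5 kb of it (RefSeq, GRCm38.p6), fitted the same way, and starts and promoter sequences come from the RefSeq table of that build. CPM values are counts scaled to the TMM-adjusted total, and standard errors come from the fold change and its F value. Since the counts may hold PCR copies, no counting intervals are given and errors rest on the spread between libraries. The fitting step was tested on simulated data. No pair of libraries of a group agreed within sampling noise.

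Members and gene lists were chosen with earlier results of these data known. Named genes are 27 anchor genes, up to 5 per list and direction by p, the 10 loci and 10 regions per direction with the smallest p among those whose log2 fold change reached 1 and whose libraries did not overlap, up to 10 loci called in neither direction with at least 3 regions called each way, and the 5 longest runs per direction; the start regions shown and the loci called one way were chosen after their values were seen. Alternatives were RLE or total-count scaling, no filter, DESeq2 1.42.0, limma-voom (limma 3.58.1), the 6 libraries alone, groups by sample titles, thinned counts, left-out libraries, a minimum fold, no flank, regions of a single gene, a wider start window and, added after seeing the data, a replicate block. A few genes that this rule names are not reported here.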

Additional observations from a re-analysis of the deposited data

How the results depend on the processing

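With groups taken from the sample titles, edgeR called 0 regions, 0 gene loci and 0 regions at starts (183, 61 and 25 at an unadjusted p under 0.05), and Sall3 read -0.015, P2ry13 -0.066, Cx3cr1 -0.11, Mef2c -0.094, Smad3 -0.074, Spi1 -0.17, Runx1 -0.14, Ccr2 -0.34, Tgfbi -0.071 and Csf1r -0.019 (log2). Thinning every library to the smallest total left 20007 of 40163 regions, 3897 of 6375 gene loci and 1758 of 3326 start regions called. A log2 fold change of at least 1 left 25480 regions and 1658 gene loci. Windows of 1 kb around starts held 5837 called regions. With MG as replicate 1 alone, whose spread is then assumed to be like that of the other groups, 1771 start regions were called, and Runx1 read -0.21 and Ccr2 -1.28. limma-voom put P2ry13 at -0.069 and Csf1r at -0.021, and without the 5 kb flank P2ry13 read -0.59. Leaving out 1 library at a time gave 2094 to 4035 start regions, and log2 values of -0.17 to 0.30 for P2ry13, -0.016 to 0.24 for Mef2c, -0.019 to 0.27 for Runx1, -0.28 to 0.54 for Ccr2 and -0.17 to 0.17 for Csf1r. The cause of these shifts was not tested.

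Of 346 called listed or named genes, 330 stayed called with DESeq2, 340 with RLE scaling, 338 with total-count scaling, 342 with limma-voom, 342 without the filter and 295 with the 6 libraries alone. With MG as replicate 1 alone, 74 lost the call and 8 changed sign, thinning lost 79, leaving out the flank lost 29 and turned 9, and regions of a single gene lost 27 and turned 4. Genes that could not be tested in a setting are in none of these numbers. Of the 346, 255 stayed called under thinning, 295 without the flank and 282 with regions of a single gene. By sample titles 256 lost the call and 90 changed sign. Leaving out 1 library lost between 14 and 43 calls. A replicate block, added after seeing the data, changed little: with the 3 sets of 4 consecutive library names as the block, 39298 regions, 6184 gene loci and 3122 start regions were called, 340 of the 346 genes stayed called, and Csf1r read -0.00020. With the mouse numbers of the titles as the block, the counts were 38820, 6080 and 3084, and 338 genes stayed called. The deviations of MG and MDM libraries of the same set correlated at 0.033, -0.025 and 0.075, so the sets were not taken to pair the libraries. The smallest library, MG 1, limits the precision of MG at regions of few counts.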
